A study of Mus musculus with 2 samples.

Results

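The genes described here are 10 members of the B-cell and antibody-secreting cell programme, chosen by symbol from the gene list that both libraries share, and all 10 were found among its 19465 rows. They are the immunoglobulin chain genes Ighm, Igkc and Igha, the plasma cell genes Jchain and Mzb1, the B-cell receptor genes Cd79a and Cd79b, the early B-cell genes Vpreb3 and Igll1, and the transcription factor gene Ebf1. The series holds 2 spatial transcriptomics libraries, each counting transcripts of a section by barcoded spot, and a spot may cover more than 1 cell. Both sections are labelled as bone of nude mice. The implant was flat in the first group and had micropillars in the second, and the material was formalin-fixed and paraffin-embedded. The labels give no strain, age or time after implantation and do not say how many animals a section stands for. Nude mice, which make up both groups, have no functional thymus and are poor in T cells while they still form B cells.

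B cells arise in the bone marrow. A progenitor under the control of EBF1 and E-box binding factors first makes a pre-B-cell receptor from the Ighm heavy chain, the surrogate light chain protein encoded by Igll1 and the signalling pair encoded by Cd79a and Cd79b, while Vpreb3 is made by immature B cells. After a light chain such as that of Igkc replaces the surrogate, the cell leaves the marrow, and on activation it may become a plasma cell that switches the heavy chain, for example to the alpha chain of Igha. A plasma cell loads the endoplasmic reticulum with antibody, with help from the chaperone-like protein of Mzb1, and links IgA or IgM subunits through the joining chain of Jchain.

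The members lie on separate chromosomes except for the heavy chain pair and the pair Cd79b and Ebf1. In mm10, Ighm spans positions 113418558 to 113422730 and Igha 113254830 to 113260236 of chromosome 12, both on the minus strand and both annotated as constant region genes. Igkc, the kappa constant region gene, spans 70726435 to 70726966 of chromosome 6. Cd79a lies on chromosome 7 from 24897381 to 24902197, Vpreb3 on chromosome 10 from 75943057 to 75949657 and Jchain on chromosome 5 from 88519809 to 88527891. RefSeq promoter entries on GRCm38.p6 were found for 5 of the 10 members. The stretches before the start sites of Cd79a and Vpreb3, which gave most of the marrow UMIs of the B-cell receptor and early B-cell members, and of Jchain, a plasma cell gene with no UMI in marrow spots, are shown here with E-boxes, the 6-letter motif CANNTG, in capitals, since E-box factors act in B-cell development.
Cd79a, chr7:24897247-24897380, plus strand: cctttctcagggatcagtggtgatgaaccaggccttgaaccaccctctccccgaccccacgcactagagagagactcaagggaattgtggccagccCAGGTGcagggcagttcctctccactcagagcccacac
Vpreb3, chr10:75948050-75948299, plus strand: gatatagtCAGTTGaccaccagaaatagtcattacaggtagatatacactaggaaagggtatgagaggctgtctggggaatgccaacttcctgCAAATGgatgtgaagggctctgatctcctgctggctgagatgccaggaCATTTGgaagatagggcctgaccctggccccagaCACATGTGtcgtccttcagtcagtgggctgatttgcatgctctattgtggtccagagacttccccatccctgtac
Jchain, chr5:88527898-88528147, minus strand: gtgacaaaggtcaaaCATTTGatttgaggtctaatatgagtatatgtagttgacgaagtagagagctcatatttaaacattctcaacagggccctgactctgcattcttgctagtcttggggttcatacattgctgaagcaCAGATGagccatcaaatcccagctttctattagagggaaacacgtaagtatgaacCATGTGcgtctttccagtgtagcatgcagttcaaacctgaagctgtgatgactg

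The RefSeq start of Vpreb3 lies inside the annotated gene span. The Cd79a stretch ends where the annotated first exon begins, so only 134 of its 250 upstream bases are shown. In the full 250 bases the motif CANNTG, which reads the same on both strands, occurred 2 times for Cd79a, 5 times for Vpreb3, where a pair of matches overlaps, and 3 times for Jchain. It is common: 66.2% of all 32851 promoter windows of that length hold it. The EBF motif, TCCC and GGGA with 2 bases of any kind between them, is also the same on both strands. It was present in 0.779% of the windows and had no match in the 250 bases of any of these 3 genes. These matches describe letters only and are no evidence of binding.

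Kept spots had at least 100 unique molecular identifiers (UMIs, each a captured transcript), which left 2681 of 3161 spots in the flat section and 3064 of 3303 in the micropillar section. They held 2263345 and 3173632 UMIs, and a level in CPM is the UMIs of a gene per 1000000 UMIs of the spots it is given for. The 10 members together had 345 UMIs in the flat section and 382 in the micropillar section. A marrow spot was defined without any member, as a spot with at least 2 UMIs of 9 genes of neutrophil granules and their precursors, such as Elane and Mpo, that made up at least 0.5% of its UMIs. This gave 27 marrow spots with 7258 UMIs in the flat section and 19 with 9656 UMIs in the micropillar section. Erythroid genes, another product of marrow, were not used in that rule and were 78.1-fold and 12.4-fold higher in marrow spots than in other spots, and the 11 bone and connective tissue genes 9.57-fold and 12.02-fold. Each remaining spot took the class of its leading marker list, and neural spots, 1491 and 2015, were the most frequent although the tissue is labelled as bone. Each group is 1 library from 1 section, so values have no replicates behind them and no p-value is given. Intervals in brackets are exact at 95%, from the Poisson distribution for levels and by the Clopper-Pearson method for shares and ratios, and they hold counting error alone.

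Of the B-cell receptor and early B-cell genes, Cd79a was higher in marrow spots in both sections and Vpreb3 in the micropillar section. Every value rested on few UMIs, and Cd79b and Igll1 were too scarce to read. Cd79a, whose product carries the signal of the B-cell receptor, had 9 UMIs in the flat library, 3 of them in marrow spots, and 12 in the micropillar library, again 3 in marrow. Its level in marrow against other spots was 413 and 2.66 CPM in the flat library, a ratio of 155 (25.2 to 728), and 311 and 2.84 CPM in the micropillar library, a ratio of 109 (19.02 to 438). Both intervals lay above 10, but they treat UMIs as independent, and 2 of the 3 flat marrow UMIs lay in 1 spot. By spots, Cd79a was found in 7.41% (0.910 to 24.3) of flat marrow and 0.226% (0.0830 to 0.491) of other spots. In the micropillar library these shares were 15.8% (3.38 to 39.6) and 0.296% (0.135 to 0.560). After each spot was thinned to 100 UMIs, 1 marrow spot of each library held Cd79a, too few to compare.

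Vpreb3 had 9 UMIs in the flat library, 1 of them in marrow, and 11 in the micropillar library, 5 of them in marrow. The ratio of marrow over other spots was 38.9 (0.876 to 290) in the flat library, an interval that included 1, and 273 (65.9 to 1074) in the micropillar library. The other B-cell members were near the limit of detection. Cd79b, the partner of Cd79a, had 1 UMI in the flat library, in a matrix spot, and 2 in the micropillar library, 1 of them in a marrow spot. Igll1 had 2 UMIs in the flat library, both in neural spots, and 0 in the micropillar library, where a count of 0 allows up to 0.945 CPM over kept spots.

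Summed over Cd79a, Cd79b, Vpreb3 and Igll1, called the B set below, marrow spots held 4 of 21 UMIs in the flat section and 9 of 25 in the micropillar section. Marrow made up 1.01% and 0.620% of the kept spots. The level of the B set was 551 CPM (150 to 1411) in flat marrow spots against 7.54 CPM in other spots, a ratio of 73.1 (17.9 to 224). It was 932 CPM (426 to 1769) against 5.06 CPM in the micropillar library, a ratio of 184 (71.8 to 443). Against matrix spots alone, with 3 and 1 UMIs of the B set, the ratio was 20.0 (3.38 to 136) in the flat section and 168 (23.3 to 7365) in the micropillar section. A B set UMI was found in 2 of 27 flat marrow spots, 7.41% (0.910 to 24.3), and in 5 of 19 micropillar marrow spots, 26.3% (9.15 to 51.2). In neural spots, which should lack these genes, the shares were 0.671% and 0.397% although those spots were deeper, with a median of 1017 and 1079 UMIs against 203 and 307 in marrow.

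**Figure D1:**
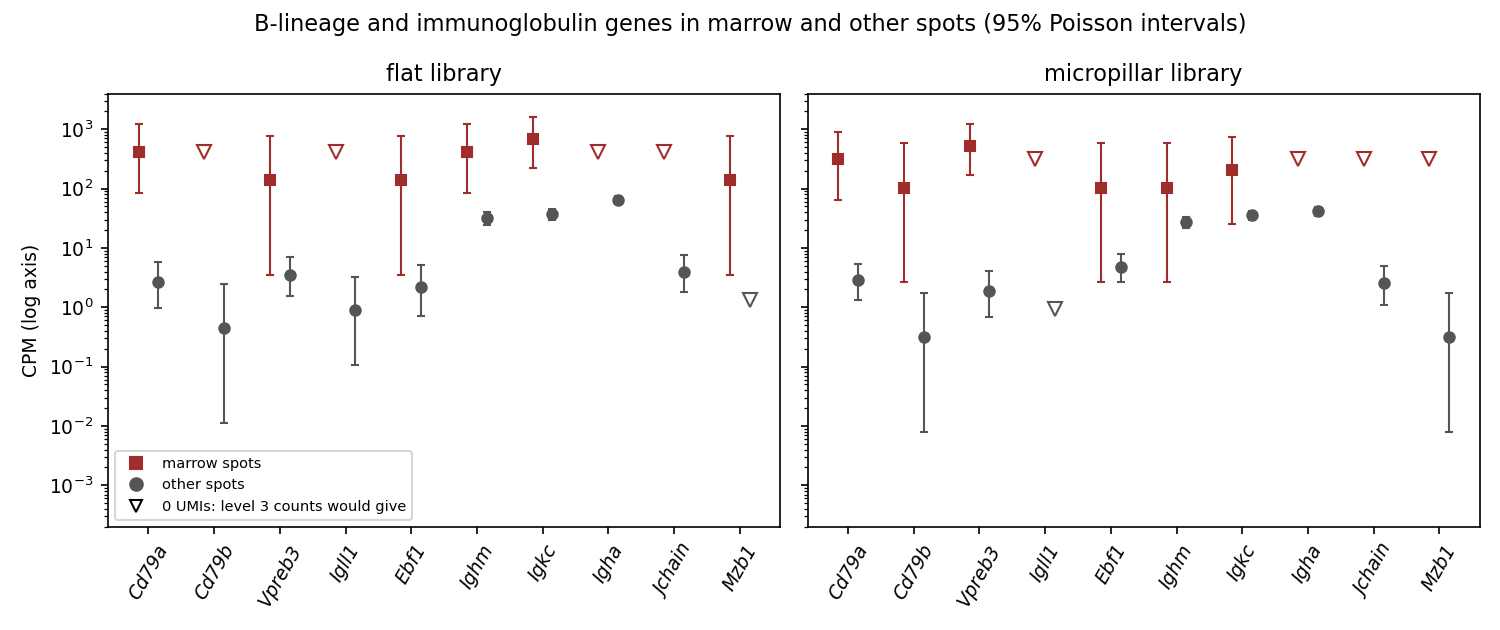
Level of each member in CPM (log axis) in marrow spots (squares) and other spots (circles) of the flat (left) and micropillar (right) library. Bars are 95% Poisson intervals, and open triangles mark genes with 0 UMIs at the level that 3 counts would give. Cd79a stood at 413 and 311 CPM in marrow spots against 2.66 and 2.84 CPM elsewhere, while Igha had no UMI in marrow spots of either library.

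The level of the B set was highest in spots with 5 or more granule UMIs. Still, 17 of its 21 flat and 15 of its 25 micropillar UMIs lay in spots without a granule UMI. In the flat library all 4 B set UMIs of marrow lay in the 11 spots with 5 or more granule UMIs, at 944 CPM (257 to 2417). The 55 spots with 1 and the 20 spots with 2 to 4 granule UMIs held 0, but in the latter a count of 0 allows up to 461 CPM, within that interval. In the micropillar library the B set was at 5.09 CPM in spots with no granule UMI, 5.81 CPM in the 144 spots with 1, 35.5 CPM (0.899 to 198) in the 30 spots with 2 to 4 and 321 CPM (139 to 632) in the 7 spots with 5 or more. These bins were added after the data were seen, and those of 11 and 7 spots are thinly filled. They cover all kept spots and also hold spots outside marrow. The 7 micropillar spots held 24923 UMIs, against 9656 in all marrow spots of that library. Spots with 5 or more granule UMIs were also deeper than those with 2 to 4, with a median of 332 against 192.5 UMIs (flat) and 724 against 537.5 (micropillar), and the part of depth was not tested. Marrow spots with a B set UMI had a median of 20 granule UMIs in the flat section and 16 in the micropillar section, against 3 and 3 over all marrow spots. In each library 1 marrow spot held both Cd79a and Vpreb3. After each spot was thinned to 100 UMIs, 1 of 27 flat and 1 of 19 micropillar marrow spots still held a B set UMI, too few to read a share from. Without the marrow spot that held most B set UMIs, an alternative added after the data were seen, the ratio was 42.4 (4.75 to 179) in the flat section and 166 (53.1 to 445) in the micropillar section.

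Across all genes with at least 10 UMIs in the library, 16% were at least 2-fold higher in marrow than in other spots in the flat section and 17.8% in the micropillar section, while 75.2% and 70.8% were at least 2-fold lower, most of them without a UMI in the small marrow set. Only 3 members reached that minimum in the flat library, of which 2 (Ighm, Igkc) were past 2-fold higher and Igha had 0 marrow UMIs. For the micropillar library 6 members reached it, of which 5 were past 2-fold higher (Ighm, Igkc, Cd79a, Vpreb3, Ebf1) and Igha again had 0. In marrow 1 UMI equals 138 CPM (flat) or 104 CPM (micropillar), so Ighm and Ebf1 of the micropillar library passed on 1 UMI each, and the intervals of Ighm, Igkc and Ebf1 there included 1. A count of 0 for Igha does not show that it was lower. The median ratio of the members that reached the minimum was 13.1 and 13.8, against 0 over all genes tested in either library. That 0 comes from genes without a marrow UMI, and the other 7 and 4 members are not covered, so nothing is read from these medians.

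Ebf1, which encodes a transcription factor needed for B-cell commitment and is also made by stromal and some neural cells, was spread over the section. It had 6 UMIs in the flat section and 16 in the micropillar section, of which 1 and 1 lay in marrow spots, 2 and 3 in matrix spots and 2 and 11 in neural spots. The marrow ratio was 62.2 (1.31 to 556) in the flat section and 21.8 (0.519 to 142) in the micropillar section, where the interval included 1.

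The chains that B cells and plasma cells share gave lower marrow ratios than the B set. Their intervals overlapped that of the B set in the flat section only. Igkc had 5 UMIs in flat marrow spots and 83 elsewhere, a ratio of 18.7 (5.92 to 45.5), and 2 and 112 in the micropillar library, a ratio of 5.85 (0.700 to 21.6). Ighm had 3 and 71 UMIs in the flat library, a ratio of 13.1 (2.65 to 39.97), and 1 and 86 in the micropillar library, a ratio of 3.81 (0.0954 to 21.8). Both ratios were above 1 beyond counting error in the flat section and not in the micropillar section. The difference between the libraries in this respect was not tested. Against matrix spots alone, marrow spots had Igkc at 3.74-fold (1.10 to 10.3) in the flat and 1.04-fold (0.121 to 4.03) in the micropillar section. Ighm was at 4.08-fold (0.731 to 15.5) and 2.33-fold (0.0526 to 17.4). Of these intervals only that of Igkc in the flat section lay above 1. Of the marrow spots with a B set UMI, 0 of 2 in the flat section and 2 of 5 in the micropillar section also held Igkc, and 0 and 1 held Ighm.

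For the plasma cell genes Igha, Jchain and Mzb1 no enrichment in marrow was detectable at this depth. Igha, the constant region of the IgA heavy chain, had 146 UMIs in the flat section and 131 in the micropillar section, and 0 of them in marrow spots of either. With 3 counts taken as the limit of a count of 0, Igha in marrow was at most 6.39-fold and 7.50-fold the level of other spots, so a smaller enrichment could not have been seen. Against matrix spots alone, where Igha was higher, the interval of its ratio reached up to 1.001 (flat) and 1.56 (micropillar). Jchain had 9 and 8 UMIs, with 0 in marrow. Mzb1 had 1 UMI in each library, in a marrow spot of the flat section and in a skin spot of the micropillar section. For Jchain, Mzb1 and Igha together, called the plasma set, marrow held 1 of 156 UMIs in the flat library, a ratio of 2.01 (0.0505 to 11.3), and 0 of 140 in the micropillar library, at most 7.02-fold. With Igkc and Ighm counted in the plasma set, the flat ratio was 9.05 (4.10 to 17.4) and the micropillar ratio 2.91 (0.597 to 8.57).

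The balance of B set against plasma set transcripts in marrow was set beside that in the rest of each section. The B set is not made of early B-cell genes alone. Cd79a, a B-cell receptor gene, gave 3 of its 4 UMIs in flat marrow spots. Of the UMIs of both sets, the B set gave 4 of 5 in flat marrow spots, 80% (28.4 to 99.5), and 17 of 172 in other spots, 9.88% (5.86 to 15.4). In the micropillar library it gave 9 of 9 in marrow, 100% (66.4 to 100), and 16 of 156 elsewhere, 10.3% (5.98 to 16.1). The intervals of marrow and other spots did not overlap in either library, but the flat result rests on 1 spot and on the choice of genes. Without the marrow spot with most B set UMIs the flat marrow share was 66.7% (9.43 to 99.2), and with Vpreb3 and Igll1 only it was 50% (1.26 to 98.7), both overlapping the shares outside marrow. With Igkc and Ighm in the plasma set the marrow shares were 30.8% (9.09 to 61.4) for flat and 75% (42.8 to 94.5) for micropillar spots. No marrow spot held UMIs of both sets. In marrow 1 UMI equals 138 CPM (flat) or 104 CPM (micropillar), above the plasma set level of 68.7 and 44.2 CPM in other spots. At that level marrow would hold under 1 plasma set UMI on average, so B set enrichment alone gives a high share there. The change of the share largely restates the B set ratio and shows no change of the plasma set. The intervals treat UMIs as independent, while the 9 in micropillar marrow lay in 5 spots. Genes differ in how well they are captured, so these shares are not ratios of cells. In each area, fewer cells of a type and less RNA per cell cannot be told apart.

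Outside marrow, Igha and Igkc were higher in matrix spots than in neural spots, though matrix was not the only class with raised levels. In matrix spots, those led by genes such as Col1a2, Igha was at 525 CPM (397 to 680) in the flat section and 255 CPM (187 to 340) in the micropillar section. In neural spots it was at 31.03 CPM (23.6 to 40.1) and 18.9 CPM (13.99 to 25.0), so that matrix spots stood 16.9-fold (11.5 to 24.8) and 13.5-fold (8.82 to 20.6) higher. Igkc was at 184 CPM (112 to 284) and 199.7 CPM (139.9 to 276) in matrix spots against 23.5 and 18.1 CPM in neural spots, 7.82-fold (4.37 to 13.5) and 11.01-fold (6.93 to 17.4) higher. Both genes were thus higher in matrix than in neural spots in each section. Ighm was 3.78-fold higher (1.78 to 7.36) in the flat section and 1.72-fold (0.712 to 3.58) in the micropillar section, where the interval included 1. Igkc was also at 179 and 152 CPM in muscle spots and at 171 and 622 CPM in unclassified spots. Ighm was at 99.5 and 75.9 CPM in muscle and 64.0 and 124 CPM in unclassified spots, against 101 and 44.4 CPM in matrix spots. The micropillar muscle values rest on 2 and 1 UMIs. Skin spots were low, with Igkc at 11.0 and 33.8 CPM and Ighm at 11.0 and 19.7 CPM. Over all genes tested, 23% and 20.1% were at least 2-fold higher in matrix than in neural spots. Of the members with at least 10 UMIs in these 2 classes, 3 of 3 in the flat library were past 2-fold, and 3 of 4 (Igkc, Igha, Ebf1) in the micropillar library, where Ebf1 had 3 UMIs in matrix spots and a ratio of 3.92 (0.702 to 14.8), an interval that included 1. The macrophage list, markers of another cell type of connective tissue, had UMIs of all 7 genes in each library and moved the same way, with 3147 and 2651 CPM in matrix against 232 and 255 CPM in neural spots, and its part in the result was not tested.

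The share of spots with Igha was also higher in matrix than in neural spots after depth was equalised. Thinned to 100 UMIs, 4.17% of flat matrix spots (2.49 to 6.51) and 0.469% of flat neural spots (0.189 to 0.965) held an Igha UMI, and 2.86% (1.49 to 4.95) and 0.149% (0.0307 to 0.434) in the micropillar library. Unthinned the shares were 6.02% and 2.41% in the flat section and 6.92% and 1.89% in the micropillar section. No kept spot was left out by this thinning. Skin spots had Igha at 71.8 CPM (38.2 to 123) and 30.97 CPM (15.5 to 55.4), against neural spots 2.31-fold (1.16 to 4.27) in the flat section and 1.64-fold (0.768 to 3.19) in the micropillar section. In the flat section the unthinned share of spots went the other way, with Igha in 1.61% of skin and 2.41% of neural spots. Thinned to 100 UMIs the shares were 0.269%, from 1 skin spot, and 0.469%. Thinned to 250 UMIs, which left out 51 spots of either class, they were 1.25% and 0.903%. No order of skin and neural spots is therefore read. Muscle spots had 6 Igha UMIs in the flat library, 119 CPM (43.8 to 260), and 0 of 13171 UMIs in the micropillar library. By the level of Igha in CPM the order in the flat library was matrix, unclassified, muscle, skin and neural spots. There each class overlapped in its interval with the next in this order. In the micropillar library it was unclassified, matrix, skin and neural spots, of which only skin and neural overlapped.

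The unclassified spots, whose marker lists all had under 2 UMIs, owed their level to a few spots. They were 94 in the flat and 101 in the micropillar section. In the latter, 8 of them held 25 Igha UMIs, 1037 CPM (671 to 1531), and 11 of these UMIs lay in 1 spot. Without the 3 spots with most Igha UMIs in each class, a step added after the data were seen, Igha was at 215 CPM in unclassified, 190 CPM in matrix and 13.9 CPM in neural spots of the micropillar library. In the flat library the same values were 86.4, 335 and 21.9 CPM. The excess of matrix over neural spots was therefore present without these spots.

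**Figure D2:**
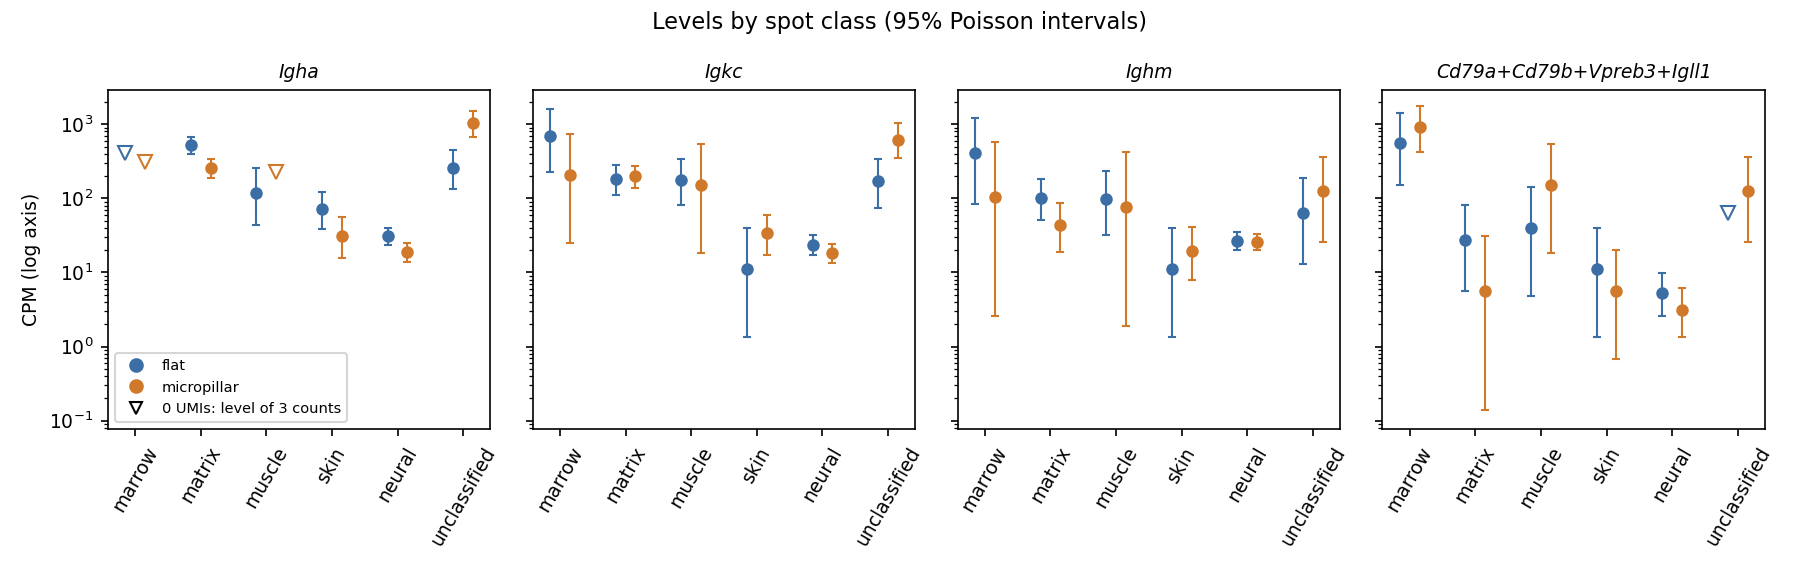
Level in CPM (log axis) of Igha, Igkc, Ighm and the summed B set in each spot class of the flat (blue) and micropillar (orange) library, with 95% Poisson intervals and open triangles for 0 UMIs at the level of 3 counts. Igha stood at 525 and 255 CPM in matrix spots and had 0 UMIs in marrow, while the B set had its highest levels in marrow, at 551 and 932 CPM, with an interval overlapping that of the 36 muscle spots in the micropillar library.

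Igha UMIs were gathered in few spots, where the levels of some but not all other antibody transcripts were higher as well. In the flat library 77 spots held Igha, with up to 10 UMIs in a spot, and the 10 highest spots held 39.04% of its UMIs. For the micropillar library 86 spots held it, with up to 11 UMIs, and the 10 highest held 36.6%. Ighm had at most 3 UMIs in a spot of either library, with 25.7% and 24.1% of them in its 10 highest spots. Igkc, the light chain gene, was found in 21 of the 77 flat spots with Igha, 27.3% (17.7 to 38.6), and in 1.498% (1.07 to 2.04) of spots without. Among micropillar spots it was found in 16 of 86, 18.6% (11.02 to 28.4), and in 2.08% (1.60 to 2.66). Over all classes spots with Igha had a median of 426 UMIs against 604 in the flat section and 662.5 against 838 in the micropillar section. Within classes they were mostly deeper, with 240 against 204.5 (flat) and 350 against 340.5 (micropillar) in matrix spots and 967 against 1018 and 1312.5 against 1076 in neural spots, and the part of depth was not tested. Scaled to depth, Igkc in CPM was 21.9-fold (8.22 to 61.7) and 10.7-fold (5.17 to 21.7) higher in matrix spots with Igha than in those without, and 21.6-fold (10.8 to 41.7) and 10.8-fold (4.81 to 22.2) in neural spots.

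Jchain went with Igha as well. Of its 9 flat UMIs 4 lay in spots with Igha, a ratio of levels of 31.4 (6.23 to 146), and of its 8 micropillar UMIs 5 did, a ratio of 57.3 (11.2 to 369). Within matrix spots the same held. There Jchain was found in 3 of 26 flat and 3 of 29 micropillar spots with Igha and in 0 of 406 and 0 of 390 without. In neural spots, with 5 and 3 Jchain UMIs in all, 0 of 36 and 0 of 38 spots with Igha held it, too few to show a relation or its absence. Ighm was 5.43-fold higher (2.38 to 10.96) in flat spots with Igha and 1.66-fold (0.441 to 4.40) in micropillar ones, an interval that included 1. Of the B set, Cd79a had 3 of 9 flat UMIs in spots with Igha, a ratio of 19.6 (3.17 to 91.8), and 2 of 12 micropillar UMIs, a ratio of 6.88 (0.733 to 32.3). Vpreb3 had 0 of 9 and 1 of 11 UMIs in such spots.

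The heavy chain joining segment gene Ighj1, which is no member but forms part of rearranged heavy chain transcripts, had 232 UMIs in the flat section and 153 in the micropillar section. Its level was 2044 CPM in flat spots with Igha against 53.01 CPM in spots without, a ratio of 38.6 (29.5 to 50.3), and 836 against 25.3 CPM in the micropillar library, a ratio of 33.06 (23.8 to 45.99). Cd74, the invariant chain of antigen presentation, was 4.84-fold (3.71 to 6.23) and 3.26-fold (2.48 to 4.21) higher in spots with Igha. Cd74 was itself higher in matrix spots, at 2374 and 1670 CPM against 277 and 233 CPM over kept spots. Within matrix spots its ratio was 1.36 (0.835 to 2.11) in the flat section, an interval that included 1, and 1.87 (1.29 to 2.64) in the micropillar section. Within neural spots the ratio was 14.3 (9.54 to 21.1) and 3.55 (1.85 to 6.26). The T-cell receptor gene Trbc2 was not apart, at 1.02-fold (0.208 to 3.07) and 1.98-fold (0.712 to 4.47). Sdc1, a plasma cell surface marker that epithelium also makes, was at 1.31-fold (0.623 to 2.45) and 0.868-fold (0.459 to 1.498).

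**Figure D3:**
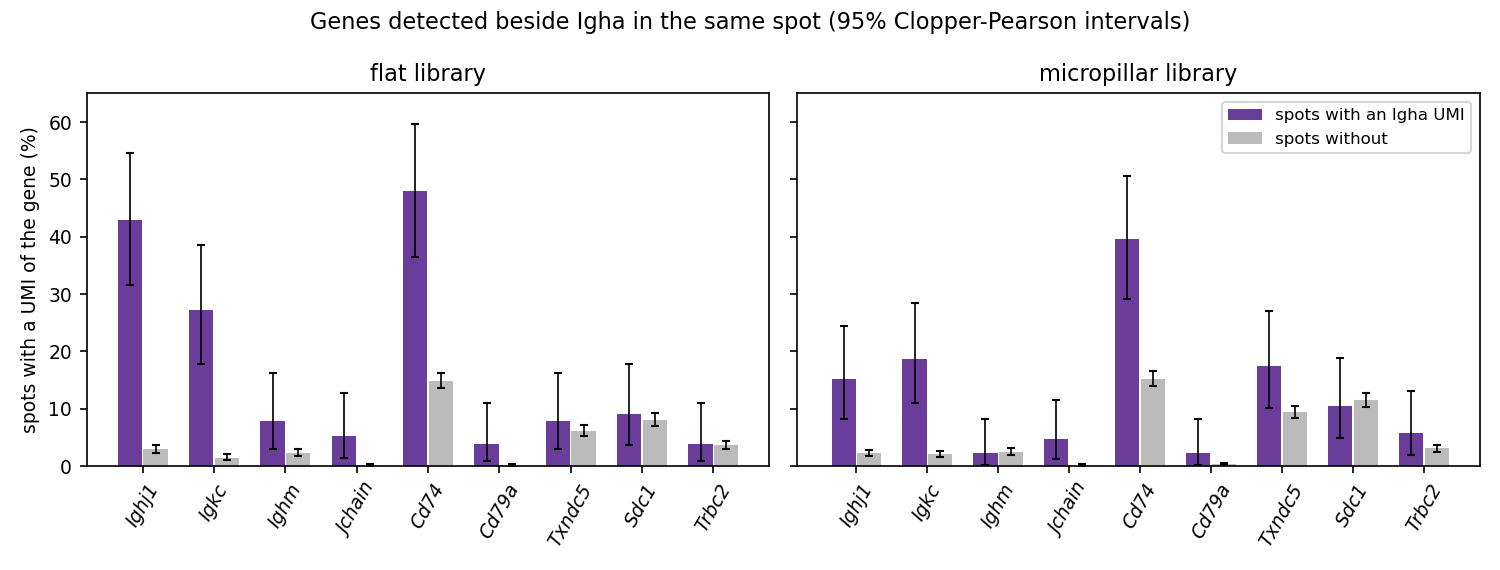
Percent of spots with a UMI of each gene among spots with an Igha UMI (purple) and without (grey), in the flat (left) and micropillar (right) library, with 95% Clopper-Pearson intervals. Igkc was found in 27.3% and 18.6% of spots with Igha against 1.498% and 2.08% without, while the intervals with and without Igha overlapped for Sdc1 and Trbc2.

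Between the libraries, the level of Igha was lower in the micropillar section, and no other member differed beyond counting error. Flat spots gave 64.5 CPM of Igha and micropillar spots 41.3 CPM, for a log2 ratio of -0.64 (-0.996 to -0.294). In matrix spots the log2 ratio was -1.04 (-1.63 to -0.454), from 57 and 46 UMIs. Unthinned, the share of spots with Igha was 2.87% (2.27 to 3.58) of flat and 2.81% (2.25 to 3.45) of micropillar kept spots. In matrix spots it was 6.02% and 6.92%. Micropillar spots were deeper, with a median of 831 against 602 UMIs. Thinned to 100 UMIs, the share outside marrow was 1.17% (0.795 to 1.65) in the flat section and 0.624% (0.376 to 0.973) in the micropillar section. For matrix spots it was 4.17% (2.49 to 6.51) and 2.86% (1.49 to 4.95). The thinned shares were thus lower in the micropillar section, with intervals that overlapped. As Igha UMIs were gathered in few spots, the counting interval of its ratio is too narrow. Igkc had 38.9 and 35.9 CPM, or -0.11 (-0.528 to 0.304), and Ighm 32.7 and 27.4 CPM, -0.25 (-0.718 to 0.213). Cd79a had 3.98 and 3.78 CPM and Vpreb3 3.98 and 3.47 CPM. Ebf1, with 2.65 and 5.04 CPM, had a log2 ratio of 0.93 (-0.500 to 2.57). Jchain was at -0.66 (-2.23 to 0.888).

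Of all genes with at least 10 UMIs over both libraries, 4.75% were at least 2-fold higher in the micropillar library and 2.37% at least 2-fold lower. Of the 7 members that reached this minimum 0 were past 2-fold either way, and their median ratio was 0.872 against 1.04 over all genes tested. The B set had a log2 ratio of -0.24 (-1.13 to 0.674) over the section and 0.76 (-1.08 to 2.91) within marrow spots, both with intervals that included 0. The plasma set, nearly all of it Igha, had -0.64 (-0.983 to -0.305), with the same limit. The sections also differed in makeup, with 265 muscle spots in the flat and 36 in the micropillar section, and with 1 section each the implant and the piece of tissue cut cannot be told apart.

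Other genes of these pathways were mostly scarce or not particular to B cells. Of 13 further early B-cell genes 12 were in the gene list, and 9 had a UMI in the flat and 8 in the micropillar section. The recombinase genes Rag1 and Rag2 had 2 and 1 UMIs in the flat section and 0 and 0 in the micropillar section. The 3 most abundant were the adaptor gene Blnk with 138 and 154 UMIs, the transcription factor gene Bach2 with 48 and 56 and Cd24a with 38 and 38. As a list these genes were 7.04-fold (2.56 to 15.5) and 8.14-fold (3.48 to 16.2) higher in marrow spots, on 6 and 8 UMIs there. Other lists also had marrow ratios above 1. The mature B-cell genes were at 3.61-fold (1.64 to 6.88) and 4.62-fold (2.45 to 7.93). Other immunoglobulin genes were at 4.27-fold (1.16 to 11.1) and 6.42-fold (1.73 to 16.7), on Ighj1 alone. Macrophage genes were at 1.68-fold (0.545 to 3.94), which included 1, and 5.35-fold (3.38 to 8.06). Matrix spots exceeded marrow for mature B-cell genes, at 2899 against 1240 CPM (flat) and 2136 against 1346 CPM (micropillar). So they did for macrophage genes, at 3147 against 689 and 2651 against 2382 CPM. Other immunoglobulin genes went both ways, at 801 against 551 and 300 against 414 CPM. Further early B-cell genes were higher in marrow, at 827 against 221 and 829 against 178 CPM.

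Of 13 mature B-cell genes 11 had a UMI in each library, led by Cd74 with 628 and 740 UMIs, Cd37 with 85 and 95 and H2-Ab1 with 48 and 67. The B-cell surface gene Ms4a1 had 2 and 3 UMIs and the IgD heavy chain gene Ighd 5 and 1. Of 11 further plasma cell genes 10 had a UMI in each library, led by Sdc1 with 309 and 528 and Txndc5 with 189 and 338, followed by Prdm1 with 67 and 93. Their level was highest in skin spots, at 2022 and 1568 CPM, against 635 and 499 CPM in matrix spots, which is unlike Igha. Tnfrsf17, a receptor of plasma cells, had 3 and 8 UMIs. None of those lay in a spot with Igha.

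Other immunoglobulin genes were led by Ighj1, Ighg2c with 42 and 25 UMIs and Ighg2b with 14 and 7. The last 2 are close copies whose split is uncertain. In spots with Igha, Ighg2b was 98.1-fold (28.3 to 428) higher in the flat and 13.8-fold (1.31 to 84.0) in the micropillar section. Ighg2c was at 1.96-fold (0.230 to 7.56) and 2.99-fold (0.342 to 12.1), intervals that included 1. Ighg3 had 16 UMIs in the micropillar section, 0 of them in spots with Igha. Ighg1 had 0 UMIs in either library. Of 8 genes in a list of signals and markers linked to the B-cell niche, the most abundant were Kitl with 136 and 183 UMIs, Cxcl12 with 30 and 49 and Tnfsf13 with 22 and 33. Marrow spots held 0 and 1 UMI of the list, at most 4.24-fold the level of other spots in the flat section and 1.08-fold (0.0272 to 6.05) in the micropillar section. Of the 12 T-cell genes, checked because the mice are nude, 7 had a UMI in the flat and 8 in the micropillar section. Cd3g, Cd8a, Cd8b1 and Trac had 0 UMIs in both libraries and Cd3e 2 and 3, while Trbc2 had 118 and 110 and Thy1, which neurons make in quantity, 1060 and 1437.

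Genes whose pattern over spots was most like the 2 sets were sought among 8822 non-member genes with at least 30 UMIs in each library. For the B set they were Mpo, Ighj1, Arhgdib, Camp and Prtn3, of which Mpo had a Spearman rho of 0.0986 over the 2681 flat spots and 0.159 over the 3064 micropillar spots. Mpo, Camp and Prtn3 are granule genes of the marrow rule. For the plasma set they were Ighj1, Cd74, H2-Eb1, Ccn5 and Apoe, with Ighj1 at 0.341 and 0.134. Spots of a library share its depth and tissue and counts are sparse, so these weak correlations are given as a ranking only.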

How the data were processed

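The deposited matrices give raw counts of UMIs for every gene in every spot, as whole numbers with no scaling. Space Ranger 2.0.1 made them, per the file headers. Cell Ranger 7.2.0 and mm10 are the names in the submitters' processing notes. For the probe set nothing was found in the sources. Spots with at least 100 UMIs were kept, and spot positions were not used. Of 11 symbols on 2 rows, the row with more counts was used. Counts were summed over the spots of a class and scaled to CPM. A spot outside marrow took the marker list with the highest share of its UMIs relative to that list's mean share, given at least 2 UMIs. The members, lists and classes were chosen with earlier results of these data known. Named were all members, the 3 most abundant genes of each further list and the 5 genes most like each set, and other genes were named for their role after their values were seen. The libraries share 2135 spot barcodes, which are grid addresses. Gene coordinates are from GENCODE. Python 3.11.15, numpy 2.4.6 and scipy 1.17.1 were used, with edgeR 4.0.16 and DESeq2 1.42.0 in R 4.3.3 for scaling only. The marrow ratio and its interval were tested on simulated data. These were independent Poisson counts, as the intervals assume, for genes with at least 10 UMIs. UMIs gathered in few spots and scarcer members were not covered by that test. Alternatives covered the marrow rule, the UMI minimum, the sets, the scaling and the weight of spots.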

Additional observations from a re-analysis of the deposited data

Results flagged for a closer look

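Spots with under 100 UMIs, which entered no comparison, held UMIs of the members above the 3 counts that a count of 0 allows. There were 6 such UMIs in 480 flat spots and 5 in 239 micropillar spots. No member had more than 1 of them in the flat library, and Igkc had 3 in the micropillar library.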

How the results depend on the processing

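Of 107 values of the 10 summary results under alternatives, 101 stayed inside the counting interval of the reported value, 5 moved outside it and 1 reversed. Many of these intervals are wide, so staying inside is a weak check. The flat B share in marrow stayed inside (28.4 to 99.5) although it went from 80% to 30.8%. Shares could not be called reversed. The marrow ratio of the B set ranged from 31.08 to 211 in the flat library, the lowest with Vpreb3 and Igll1 only, where its interval (0.716 to 219) included 1. In the micropillar library it ranged from 106 to 273, except that it was 0 when marrow was defined by erythroid genes other than globins, a rule that left 1 spot. With Igkc and Ighm in the plasma set, the B share outside marrow was 5.21% for flat and 4.52% for micropillar spots. In the latter it was 4.11% with Vpreb3 and Igll1 only and 18.1% with Ebf1 added. The B set ratio of micropillar over flat was 0.76 in marrow spots only. The plasma set ratio lay between -0.70 and -0.39. Counts of genes past the fold depend on that fold and on the minimum: for micropillar over flat, 633 higher and 316 lower genes became 113 and 50 at 4-fold, 1973 and 1309 with a minimum of 1 UMI and 278 and 127 with 30 UMIs. For marrow, 1872 and 2225 higher genes became 1127 and 1274 at 4-fold. For matrix over neural spots, 2503 and 2393 higher genes became 1341 and 1164 at 4-fold, 4244 and 3814 with a minimum of 1 UMI and 1390 and 1405 with 30 UMIs, and 3967 and 3033 lower genes became 2628 and 1291 at 4-fold and 6497 and 5350 with 1 UMI. No paired analysis was possible because each group has 1 library. The marrow set is the main limit: 1 UMI there equals 138 CPM (flat) or 104 CPM (micropillar).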
